A study of Sus scrofa with 3 samples.

Results

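The genes described here encode the first components of the classical complement pathway (C1QA, C1QB, C1QC, C1R, C1S and C2), the central component C3, and the proteases of the alternative pathway, CFB and CFD. They were named as a list of 9 genes by their function. Of the 22826 genes of type mRNA with a UQRPKM value, 8 belonged to the list, and 7 of these were above 0. CFD, also known as adipsin, stood under the identifier LOC396877 and was matched by its gene ID. C1R was listed at 0 in each library, and a record for C1S was not found by symbol or gene ID.

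RNA-Seq was carried out on retroperitoneal visceral adipose tissue (VAT) of Wuzhishan miniature male pigs, a small Chinese breed, which were 6 to 7 months old on arrival. Every group ate a diet rich in fat and cholesterol (HFC) for 12 weeks. Intact pigs (IM) had a sham operation with skin incisions, castrated pigs (CM) had no testes, and castrated pigs with testosterone replacement (CMT) were injected weekly with 10 mg/kg testosterone propionate in corn oil. Nothing in the sources used here gives an oil injection for IM or CM, so the injection itself and the hormone cannot be told apart. RNA was pooled within each group, from 4 pigs according to the methods and from 4 to 6 according to the sample labels, and 1 library was sequenced per pool. No difference between the RNA-Seq libraries therefore has a replicate check within these data, and no test was made. The paper also measured selected genes by quantitative RT-PCR with replicates in each group, and reports the same directions as in its RNA-Seq. Among them were the macrophage markers CD68 and EMR1, the neutrophil marker S100A9 and the leptin gene LEP, but no complement component.

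Complement is a cascade of serum proteins that marks particles for removal. In the classical pathway C1q, built from A, B and C chains, binds its target and activates the proteases C1r and C1s, which cleave C4 and C2. In the alternative pathway CFD cleaves CFB bound to C3b, and both pathways then cleave C3. The liver makes most circulating complement, macrophages are a main source of C1q, and adipocytes are a main source of CFD.

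The 3 libraries held 16611931 (IM), 15561124 (CM) and 15106608 (CMT) reads on genes, recovered as the smallest whole numbers that fit the deposited values. The true totals may therefore be larger. UQRPKM is proportional to the number of reads per kilobase of gene divided by the upper quartile of reads per gene in the library. Levels can thus be compared between genes and libraries. The adipose origin was clear from ADIPOQ, the adiponectin gene, which had 74928 UQRPKM in IM against 69193 in CM and 63873 in CMT. Markers of other tissues stood out in single libraries. APOA1 was high in all libraries (2539, 2339 and 1714 UQRPKM), and the rest of the 13 hepatocyte markers summed to 20.4 UQRPKM in IM against 7630.2 in CM and 22.4 in CMT. The 9 skeletal muscle markers summed to 82.3, 68.3 and 6130.3. In pooled tissue, fewer cells of a type and less RNA per cell cannot be told apart.

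The components differed widely in level. In IM the order from high to low was C1QC, C1QA, CFD, C1QB, C3, C2 and CFB. C1QC, C1QA and CFD ranked 284, 318 and 384 among the 15806 mRNA genes above 0 in that library. In CM, C3 had passed C1QB, and in CMT CFD was the highest of all. CFB was the lowest in every library. The spread between pigs is unknown, so whether neighbours in this order differ was not tested.

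**Figure D1:**
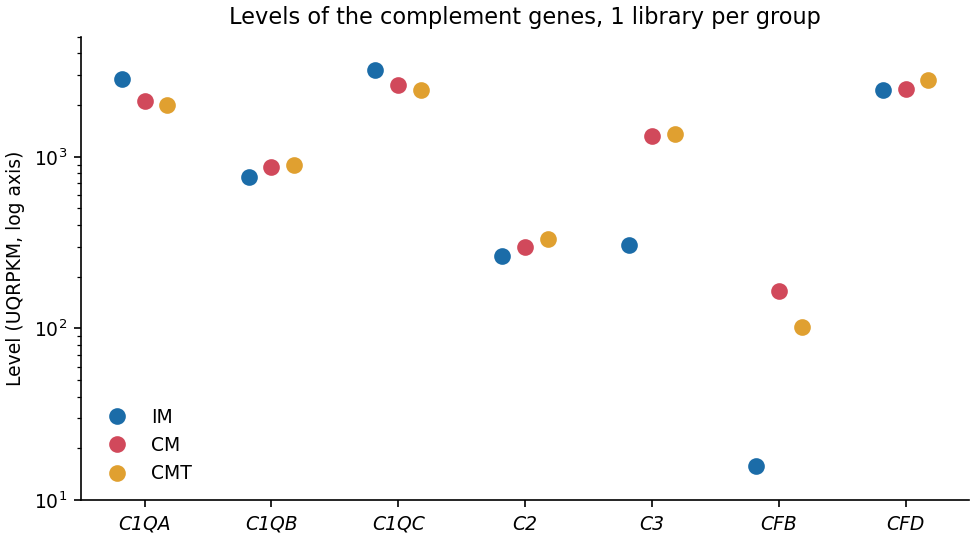
Level of each complement gene in UQRPKM on a log axis, with 1 point per library (IM, CM and CMT) and no error bars because each group is 1 pooled library. The points of C3 and CFB are far apart, with IM at 308 and 15.9 UQRPKM below both castrated libraries, whereas those of CFD lie between 2457 and 2787 UQRPKM.

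Genes were called changed when both libraries held at least 1 UQRPKM and differed 1.5-fold or more, which follows the limits of the study but not its test. In CM versus IM, 2 of the 7 measured components were called higher (C3 and CFB) and 0 lower, against 8.38% of 14123 mRNA genes called higher and 10.4% called lower. In CMT versus IM the same 2 components were called higher, against a background of 8.81%, and 0 lower, against 11.9%. In CMT versus CM 1 component, CFB, was called lower, against 9.97%, and 0 were called higher, against 9.53%. The median log2 ratios of the 7 components were 0.17, 0.041 and 0.23 for CM/IM, CMT/CM and CMT/IM, beside -0.062, -0.022 and -0.078 over all callable genes. The first of these medians was 0.015 when C1QB, whose record is uncertain, was summed with its second record as described later, and the others were then 0.023 and 0.18. The comparisons share libraries, so that a low IM library counts in both of its comparisons.

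C3, the component on which all complement pathways meet, had 308 UQRPKM in IM against 1322 in CM and 1365 in CMT. The reads behind these values numbered 1277, 5220 and 5543. C3 was therefore low in IM alone and high in both castrated libraries. Its level in CM was 4.29-fold that in IM, a log2 ratio of 2.10 with a 95% interval from 2.01 to 2.19. These intervals come from the reads and cover counting error only. In CMT it was 4.43-fold that in IM (log2 ratio 2.15, 95% interval 2.06 to 2.24). The difference between CMT and CM was 0.047 on the log2 scale, with an interval from -0.0083 to 0.10, so a difference was not detectable at this depth.

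CFB, the protease that joins C3b to form the alternative pathway convertase, had 15.9 UQRPKM in IM against 166 in CM and 102 in CMT (59, 587 and 370 reads). The largest ratio among the 7 components was that of CFB in CM versus IM, at 10.4-fold (log2 ratio 3.38, 95% interval 3.0 to 3.8). CMT lay between the other libraries, 6.40-fold above IM (log2 ratio 2.68, 95% interval 2.28 to 3.10). Against CM it was 1.63-fold lower, with a log2 ratio of -0.71 and an interval from -0.90 to -0.52, whose upper bound lies short of a 1.5-fold difference. The level of C3 was 19.4 times that of CFB in IM, 7.98 times in CM and 13.4 times in CMT.

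Among the 13858 mRNA genes that could be called in both comparisons with IM, 3.54% were called higher in both castrated libraries against IM, and 29 genes (0.209%) were at least 4-fold higher in both. C3 and CFB were among the 29. This limit of 4-fold was set after their values were seen.

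**Figure D2:**
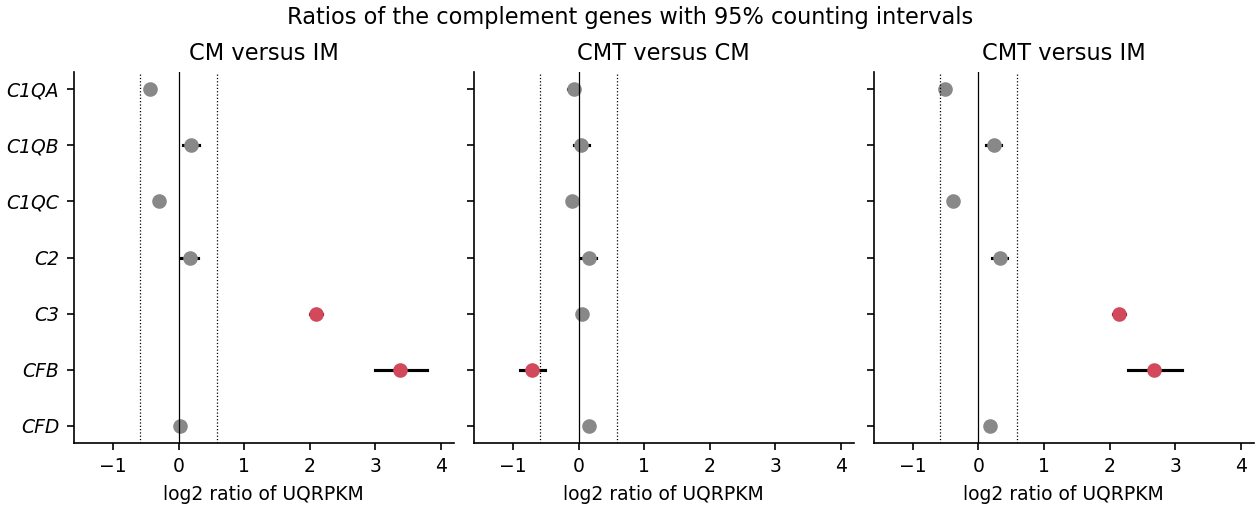
Log2 ratio of UQRPKM for each complement gene in the 3 comparisons. Points are the ratios, bars the 95% counting intervals, dotted lines a 1.5-fold difference, and red points the genes called changed. C3 and CFB stand at 2.10 and 3.38 in CM versus IM, and every other component lies inside the dotted lines in all comparisons.

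CFD, or adipsin, the protease that activates CFB, had 2457 UQRPKM in IM against 2482 in CM and 2787 in CMT (6114, 5886 and 6795 reads). These levels lay within 1.5-fold of each other. Between CM and IM the log2 ratio was 0.015, with an interval from -0.037 to 0.066. In CMT it was higher than in CM by 0.17 on the log2 scale, with an interval from 0.12 to 0.22. The level of CFD thus stood at 155 times that of its substrate CFB in IM, at 15.0 times in CM and at 27.4 times in CMT.

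C2, the classical pathway protease related to CFB, lies next to CFB in the RefSeq gene order of the pig (Sscrofa 11.1). It had 265 UQRPKM in IM against 298 in CM and 332 in CMT (1018, 1089 and 1247 reads). C2 differed little between libraries, with log2 ratios of 0.17, 0.16 and 0.32 for CM/IM, CMT/CM and CMT/IM. None of the 3 counting intervals of C2 included 0, and the highest bound was 0.44, below a 1.5-fold difference. C2 was at 16.7 times the level of CFB in IM, 1.80 times in CM and 3.27 times in CMT.

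The C1q chains are encoded by neighbouring genes, in the order C1QA, C1QC and C1QB. C1QA had 2833 UQRPKM in IM against 2100.2 in CM and 1993 in CMT (3571, 2523 and 2462 reads). C1QC had 3222, 2618 and 2452 UQRPKM from 5560, 4305 and 4146 reads. Both chains were highest in IM and similar in the castrated libraries. Between CM and IM the log2 ratio was -0.43 for C1QA (95% interval -0.51 to -0.36) and -0.30 for C1QC (95% interval -0.36 to -0.24), both short of a 1.5-fold difference. In CMT versus IM the ratios were -0.51 and -0.39. The level of C1QC was 1.14 times that of C1QA in IM, 1.25 times in CM and 1.23 times in CMT.

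C1QB was instead lowest in IM on its own record. It had 763 UQRPKM in IM against 871 in CM and 896 in CMT (1178, 1281 and 1355 reads), a log2 ratio of 0.19 in CM versus IM with an interval from 0.075 to 0.31. A second record, LOC100739136, is annotated as a C1QB-like gene. It had 931 UQRPKM in IM against 407 in CM and 401 in CMT (1293, 538 and 545 reads). Of the reads on these 2 records, LOC100739136 took 52.3% in IM (exact 95% interval 50.3 to 54.3), 29.6% in CM (27.5 to 31.7) and 28.7% in CMT (26.7 to 30.8).

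How reads that fit both records were assigned is not given in the sources used here, so the split between them is uncertain. With the reads of both summed, the log2 ratio of CM to IM was -0.37 (95% interval -0.46 to -0.28). The ratios of CMT to CM and to IM were 0.023 and -0.35. The direction of C1QB against IM thus depended on the second record, and the sum lay between the ratios of C1QA and C1QC in CM versus IM. In CMT versus IM the sum was outside their range, at -0.35 beside -0.51 for C1QA and -0.39 for C1QC. This sum was chosen after the values were seen. On its own record the level of C1QB was 0.269 times that of C1QA in IM, 0.415 times in CM and 0.449 times in CMT. When the levels of both records were added, it was 0.598, 0.608 and 0.650 times.

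**Figure D3:**
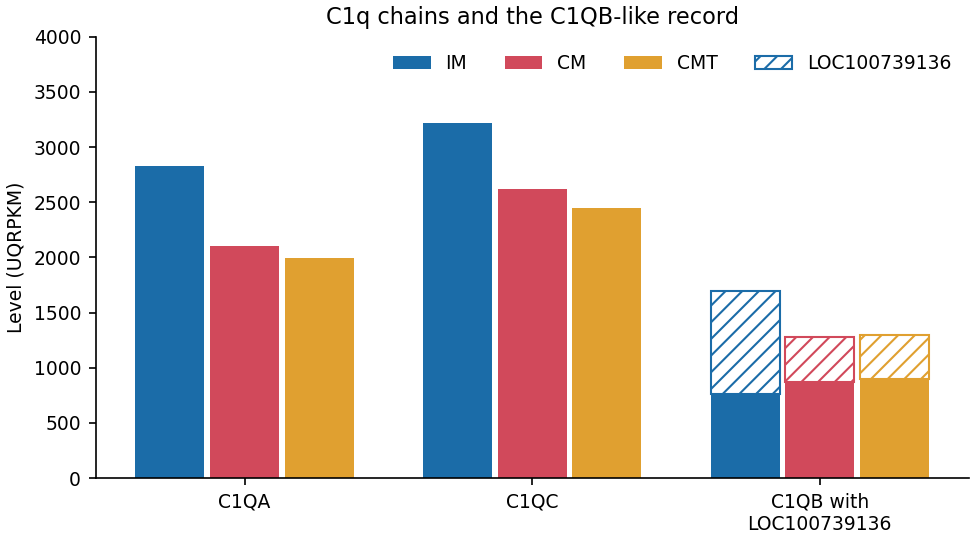
Levels of the C1q chains in UQRPKM by library (IM, CM and CMT). Hatched parts show LOC100739136 stacked on C1QB, and the bars are single pooled libraries without error. C1QA and C1QC are tallest in IM, and the solid part of C1QB is shortest there, at 763 UQRPKM, while the stacked height is 1694 UQRPKM in IM against 1277 in CM and 1296 in CMT.

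C1q is made by macrophages, and the macrophage marker list was set beside it. Of 10 markers, 9 were above 0, and their sum was 2571 UQRPKM in IM against 2869 in CM and 2493 in CMT. In CM versus IM 2 were called higher, CD68 (LOC100520753) and EMR1, with log2 ratios of 1.31 and 1.04, against 8.38% of all genes. Both were called lower in CMT versus CM, against 9.97%. The other 7 were within 1.5-fold in CM versus IM. CSF1R, the receptor for macrophage colony-stimulating factor, had 285, 246 and 221 UQRPKM in IM, CM and CMT. CD163 was listed at 0 in every library. The median log2 ratio of the 9 markers was 0.21 for CM/IM, beside -0.43 for C1QA and -0.30 for C1QC. The part of macrophage number in the C1q values was not tested.

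C1R and C1S encode the proteases of the C1 complex, and no level can be given for either. C1R and its neighbours C1RL and RBP5 in the RefSeq order were all listed at 0, whereas LPCAT3, on the far side of C1S, had 610 UQRPKM in IM against 550 in CM and 766 in CMT. A listing at 0 does not show a lack of expression. CKM, the creatine kinase of muscle, was also listed at 0 in CMT, where the other 8 muscle markers were above 0.

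The other genes of the pathway were taken from a list of 44, of which 37 were listed as mRNA, 34 were above 0 and 26 could be called in each comparison. Genes under 1 UQRPKM in a compared library were not called. MBL2, C6, C8A, C8B and C4BPB, with more reads in CM than in IM or CMT, were thus in none of the counts. In CM versus IM 6 were called higher and 3 lower (34.6% of 26), against 18.8% of all genes. In CMT versus CM 8 were higher and 5 lower (13 of 26), against 19.5%. With both libraries only required to be above 0, this split was 8 higher and 8 lower, without a share of all genes at that setting. In CMT versus IM 3 were higher and 4 lower (26.9%), against 20.7%. The split in this comparison was 5 higher and 4 lower when libraries were scaled by the median of ratios. The median log2 ratios of the 26 genes were 0.026, 0.16 and 0.23. With a 2-fold limit, 3 were higher and 2 lower for CM/IM, against 8.06% of all genes. For CMT/CM 1 was then higher and 3 lower, against 8.69%, so that the larger number was no longer on the higher side. For CMT/IM 0 were higher and 1 lower, against 8.21%.

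In the lectin pathway FCN2 and FCN1, the ficolins, which bind sugars on microbes, were the highest. FCN2 had 4191 UQRPKM in IM against 4181 in CM and 5787 in CMT, and FCN1 had 682, 666 and 954. MASP1, a protease of this pathway, had 27.9, 25.6 and 37.3 UQRPKM. All 3 were highest in CMT but within 1.5-fold of the other libraries. The mannose-binding lectin gene MBL2 had 0 reads in IM against 37 in CM and 1 in CMT.

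C4, which C1s cleaves, had 501 UQRPKM in IM against 596 in CM and 912 in CMT (4020, 4559 and 7172 reads). It was higher in CMT than in CM by 0.61 on the log2 scale (95% interval 0.56 to 0.67) and than in IM by 0.86. The record C4 was taken as C4A, and reads from the near-identical C4B, for which a record was not found, may be counted with it. C7, a component of the membrane attack complex, had 227, 165 and 329 UQRPKM and was lowest in CM, and its 95% interval for the log2 ratio of CMT to CM ran from 0.85 to 1.14. C9, the pore-forming component (LOC100037951), had 209 UQRPKM in IM against 122 in CM and 114 in CMT, a log2 ratio of -0.77 in CM versus IM. C4 and C7 were thus both highest in CMT, while C9 was highest in IM.

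The remaining components of the attack complex were high in CM alone. C5, whose cleavage starts the complex, had 11 reads in IM against 45 in CM and 16 in CMT, and C8G (LOC100037955) had 34, 83 and 21. C6, C8A and C8B had 71, 115 and 17 reads in CM and 0 in both other libraries. Set against a floor of 3 reads in IM, C6 was 24.8-fold higher in CM, C8A 40.2-fold and C8B 5.95-fold. With the 0 reads of IM, the lower bounds of their counting intervals for CM versus IM were 4.30, 5.01 and 2.11 on the log2 scale.

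Among the regulators, VTN (vitronectin, which blocks the attack complex) had 30.1 UQRPKM in IM against 323 in CM and 16.3 in CMT. CFI, which cleaves C3b, had 40.3, 67.6 and 48.7, and C4BPB had 19 reads in CM and 0 in IM and CMT. These higher levels in CM, like those of MBL2, C5, C6, C8A, C8B and C8G, went together with the hepatocyte markers, of which 0 of 13 were at 0 in CM, 5 in IM and 6 in CMT, with medians of 1.96 UQRPKM in IM against 392 in CM and 1.29 in CMT. ALB, the albumin gene, had 10 reads in IM against 10612 in CM and 15 in CMT. The part of liver RNA in these complement values was not tested.

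A second set of regulators was highest in CMT. SERPING1, the C1 inhibitor, had 9812 UQRPKM in IM against 7915 in CM and 12079 in CMT. CLU, clusterin, had 1894, 1514 and 2366, and CD55, which speeds the decay of convertases, had 49.0, 35.8 and 64.8. In CMT versus CM these 3 genes were 1.53-fold, 1.56-fold and 1.81-fold higher. The lower bounds of their counting intervals on the log2 scale, 0.57, 0.56 and 0.46, all lay short of a 1.5-fold difference. CD55 had the fewest reads of the 3, with 80 in CM and 149 in CMT. CD59, which blocks C9, was instead highest in CM, with 1766 UQRPKM in IM against 2706 in CM and 1866 in CMT.

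The receptors were mixed. VSIG4, a macrophage receptor for C3 fragments, had 155 UQRPKM in IM against 279 in CM and 177 in CMT, and was called higher in CM versus IM and lower in CMT versus CM. ITGAM, the alpha chain of complement receptor 3, had 108, 138 and 73.5 UQRPKM and was called lower in CMT versus CM. CR2 was highest in CMT, with 35.0, 36.5 and 59.9 UQRPKM. C3AR1, the receptor for C3a, was listed at 0 in each library, and C5AR1, the receptor for C5a, had 144, 158 and 107 UQRPKM. CR1 and C5AR2, also called, rested on 29 reads or fewer per library. CR1 was called lower in CM and in CMT against IM. C5AR2 was called lower in CM versus IM and higher in CMT versus CM.

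**Figure D4:**
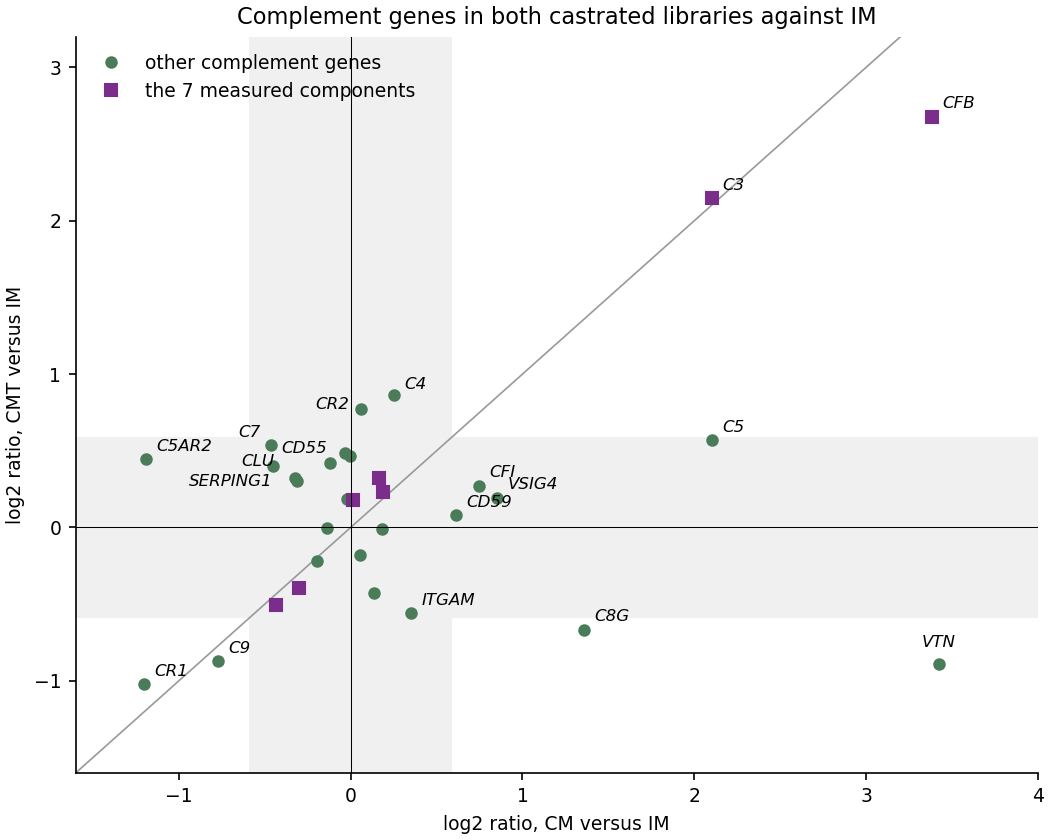
Log2 ratios in CM versus IM (x axis) and in CMT versus IM (y axis) for the 7 measured components (squares) and other complement genes (circles). Gray bands mark differences under 1.5-fold, the line marks equal ratios, and named genes were called in at least 1 comparison. C3 lies far out near the line at 2.10 on the x axis, and CFB lies below the line at 3.38. VTN and C5, at 3.42 and 2.10 on the x axis, lie farther below it.

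C3 and CFB were also set beside the marker lists. In CMT the hepatocyte markers without APOA1 summed to 22.4 UQRPKM, beside 20.4 in IM, and C3 was 4.43-fold and CFB 6.40-fold above IM. In CM they summed to 7630.2 UQRPKM, and the part of liver RNA in the levels of C3 and CFB there was not tested. Neutrophil markers (3 of 4 above 0, with CSF3R at 0) summed to 499 UQRPKM in IM against 4878 in CM and 960.1 in CMT. Mesothelial markers, which mark the lining of the body cavity, were above 0 for 4 of 5 genes, with sums of 73.5, 138 and 367 UQRPKM. Of these markers, 3 were called higher for CM/IM, against 8.38% of all genes, and 4 for CMT/IM, against 8.81%. WT1 was the marker not called for CM/IM, with 29.5 UQRPKM in IM against 33.1 in CM and 67.3 in CMT.

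The mesothelial marker UPK3B had 4.93 UQRPKM in IM against 27.4 in CM and 46.4 in CMT, and MSLN had 6.47, 15.4 and 59.5. Of 5 mesothelial markers, LRRN4 was listed at 0 throughout. The sum was higher in CMT than in CM, whereas C3 was about level and CFB lower. The stromal markers summed to 77336, 74109 and 76413 UQRPKM, with 8 of 8 above 0. Without COL3A1, the highest of them, the sums were 33838, 28098 and 36597. Single stromal markers differed in direction. COL1A1 was called lower in CM and in CMT against IM, while DPT and PDGFRA were called higher in CMT against IM. DPT was also called higher in CMT versus CM. The part of mesothelial cells and neutrophils in the values of C3 and CFB was not tested.

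**Figure D5:**
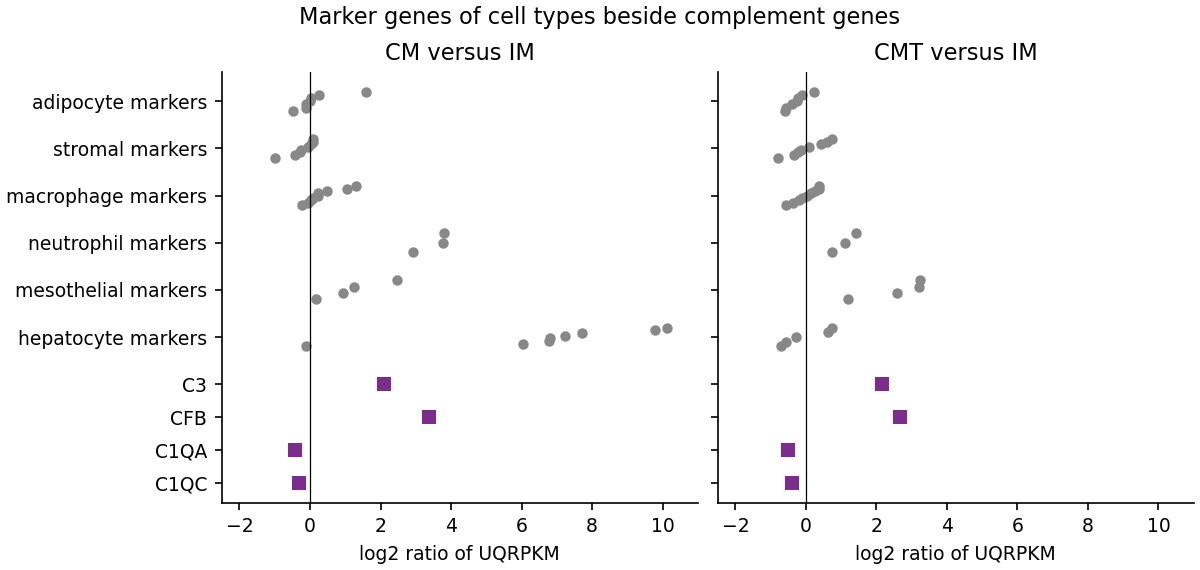
Log2 ratios of single marker genes (gray points, above 0 in both libraries) for 6 cell types beside 4 complement genes (squares), in CM versus IM (left) and CMT versus IM (right). The hepatocyte markers other than APOA1 lie far to the right in CM and nearer 0 in CMT. C3 and CFB lie at 2.10 and 3.38 in CM and at 2.15 and 2.68 in CMT.

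The genes most like each component were sought among the 7387 mRNA genes whose level reached 50 UQRPKM in each library, by the distance between their log2 ratios in CM and CMT against IM. With only 3 libraries a close match is common. Within a distance of 0.1 lay 130 genes for C1QA, 294 for C1QB, 342 for C1QC, 209 for C2 and 316 for CFD. The nearest were CORO1C for C1QA, LIFR for C1QB, CYP2B22 for C1QC, ATP2B1 for C2 and CDK5 for CFD, at distances of 0.021, 0.0037, 0.0020, 0.0048 and 0.0022. C3 had no gene within 0.1. The nearest to C3 was FABP3, a fatty acid-binding protein, with 1917 UQRPKM in IM against 8926 in CM and 9268 in CMT at a distance of 0.17, and the next were LOC100626607 and LOC100519729 at 0.20 and 0.48. CFB had no gene within 0.5, and FABP3 was again the nearest, at 1.23, but CFB itself was below 50 UQRPKM in IM. Among 13851 genes with a minimum of 1 UQRPKM, a limit added after the values were seen, GNG8 was the nearest to CFB at 0.45, from 3, 22 and 20 reads. At that limit LOC100736842 was the nearest to C3 at 0.077, from 4, 17 and 18 reads. Among the components themselves C1QA and C1QC lay 0.17 apart. C1QB lay 0.094 from C2 on its own record, but 0.085 from C1QC when summed with LOC100739136.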

How the data were processed

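The authors removed adaptors, ambiguous and low-quality reads from single-end Ion Proton data, aligned what was left by MapSplice against Sscrofa 10.2 and deposited 1 RPKM value of a modified kind (UQRPKM) per gene and library. The counting tool, the annotation and the handling of shared reads are not given in the sources used here. Libraries were grouped by their sample labels. Names were matched by symbol, then by gene ID in RefSeq (Sscrofa 11.1). No coordinates or sequences are shown because the build differs.

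Whole reads were recovered as the smallest numbers that gave the values of all libraries at 1 gene length of up to 120000 bases. All 20838 genes above 0 (100%) gave whole reads, and the relative error was at most 7.65e-09. On 1498 genes simulated with a 2-fold change in CM versus IM for some of them, reads were exact for 93.5% and low by a common factor for 6.54%. Reads served for intervals (exact Clopper-Pearson, 95%), floors (3 reads) and the sum with LOC100739136, and UQRPKM for all else. Reads of amplified libraries are not independent molecules, so intervals and floors cover counting error only.

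The members and gene lists were chosen with earlier results of these data known. Named were all members, called genes of the other complement list and those above 0 as examples. Marker genes as examples and the 3 genes nearest to a component were also named. Neighbours of C1R and C1S were named too, and so were some genes at least 4-fold higher in both castrated libraries, picked as examples. A gene of the other complement list, included in its counts, is not reported here by name. Python 3.11.15, numpy 2.4.6, pandas 2.3.3 and scipy 1.17.1 were used. Alternatives covered library scaling, a pseudocount, the minimum value, the fold limit and the counting interval.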

Additional observations from a re-analysis of the deposited data

Results flagged for a closer look

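Records that entered none of the counts held reads above the limit of 3 that a count of 0 allows. LOC100739136, the C1QB-like record, had 1293 reads in IM against 538 in CM and 545 in CMT. LOC100520761, whose gene ID is that of C4BPA in RefSeq although another record carries this symbol, had 56 reads in IM against 355 in CM and 66 in CMT. The record with the symbol C4BPA, a regulator of the classical pathway, had 1458, 1439 and 1660.0 UQRPKM, so the 2 records differed in their pattern. LOC100738907, which RefSeq names ITGAX, was on the list of other complement genes but left out of its counts because the deposited values class it as miscRNA. It had 19, 10 and 19 reads. No group had the 4 samples needed to look for outlying libraries.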

How the results depend on the processing

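The count of components called changed was 2 for CM/IM and 2 for CMT/IM under every alternative run, and 1 for CMT/CM except at a 2-fold limit, where it was 0. For the other complement genes the 2-fold limit gave 5, 4 and 1 calls in place of 9, 13 and 7 (CM/IM, CMT/CM and CMT/IM). The other alternatives stayed within 1.5 times the reported counts. The largest of these shifts was for CM/IM, where a minimum of 10 UQRPKM left 5 higher and 1 lower, in place of 6 and 3. Scaling by total UQRPKM or a pseudocount of 1 left all 21 log2 ratios of the components inside their counting intervals. Scaling by the median of ratios, a shift of 0.062, 0.018 and 0.080 for the same comparisons, left 16 inside and changed the sign of 0. Summing C1QB with LOC100739136, added after the data were seen, changed the sign of 2 of its 3 ratios and no count, and moved the median of the components for CM/IM from 0.17 to 0.015. No paired analysis was possible because each group is 1 pooled library, and no replicate could be left out for the same reason. Depth limits the genes with few reads, such as CFB in IM with 59 reads, while the RNA-Seq values give no spread between pigs for any gene.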

Other observations

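The 29 genes at least 4-fold higher in both CM and CMT than in IM, a limit set after the values were seen, included FABP3, KLF5, PRG4, SERPINB2, UPK1B and UPK3B beside C3 and CFB. KLF5, a transcription factor, had 6.59 UQRPKM in IM against 30.6 in CM and 34.6 in CMT. PRG4, which encodes the lubricant lubricin, had 1.63, 13.1 and 37.1. SERPINB2, a plasminogen activator inhibitor, had 4.36, 176 and 44.1, and UPK1B, a uroplakin, had 2.58, 29.4 and 54.2. SERPINB2 was highest in CM, as CFB was, while PRG4 and UPK1B were highest in CMT.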
